A study of Mus musculus with 18 samples.

Results

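The comparison described here sets the 6 arrays whose titles carry the codes 44 to 54 against the 6 arrays coded 12 to 22, out of 18 arrays of the series. Each array was placed by the code in its title alone, while the comparison itself was chosen with earlier results of these data known. The series measured mouse immune cells with Affymetrix 3' expression arrays at 0 h, 1 h and 4 h after a cell wall extract, and each range of codes holds 2 arrays of every time. The design text speaks of knockout mice. No label gives a genotype, strain, age, cell type, tissue or animal for any array, nor what the code ranges stand for, so range, genotype, animals, cell preparation and any batch tied to the codes cannot be told apart. All 12 arrays share the labelled cells, the extract at 1 h and 4 h, and the untreated state at 0 h. As every range holds the same times in equal numbers, time was fitted as a block, and the differences below are averages over the 3 times unless a time is given. The labels do not say whether the arrays of a range come from separate cultures or animals, so p-values here speak only of the spread between arrays, part of which may be technical.

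Cultures and tissue suspensions of immune cells can hold fibroblasts and other stromal cells, which build the extracellular matrix: they secrete fibrillar collagens, cross-link them with lysyl oxidases and, when activated, make the contractile proteins of smooth muscle. Myeloid cells take several forms. Neutrophils carry granule proteins and the S100A8 and S100A9 pair, monocytes leaving the bone marrow depend on the chemokine receptor CCR2, and macrophages express the CSF1 receptor, lysosomal proteins and scavenger receptors. Cells that divide express the replication helicase of the MCM proteins in S phase and the cyclin B and Aurora kinases in mitosis.

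Macrophage transcripts were bright in both ranges. All 23 genes of the macrophage list with a probe set exceeded the array median on at least 4 arrays of both ranges. Their summed signal was 413900 to 478200 on the arrays coded 44 to 54 and 389200 to 453000 on those coded 12 to 22. Csf1r, the receptor for the macrophage growth factor, differed by a log2 value of 0.06 ± 0.09 (SE; limma, adjusted p = 0.671). Of the markers with a probe set, 8 of 9 for NK cells, 8 of 12 for T cells, 7 of 11 for erythroid cells and 6 of 6 for mesothelium lay under the median of their array on every array.

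The 12 arrays also held a split that no label names. Eif2s3y, a gene of the Y chromosome, had a signal of 990.7 to 1729 on the arrays coded 18, 20, 22, 44, 46 and 51, and of 0.8693 to 59.98 on those coded 12, 14, 16, 47, 49 and 54. Kdm5d, also Y-linked, divided them the same way, at 173.6 to 361.6 against 8.707 to 34.29. Xist, the RNA of the inactive X chromosome, was bright on all 12, between 1995 and 13260. Each range and each time thus holds 1 array with high and 1 with low Y-linked signal, and the arrays of a range come in 2 sets of 3, called the high-Y and low-Y arrays here. This split was seen in the data. Each set holds 3 arrays of a range, so fits within it called fewer genes: of 117 named genes past the threshold, 46 passed in the low-Y arrays, 64 in the high-Y arrays and 37 in both, and all 117 had the same sign in both. The 117 were called on both sets together, which favours the same sign in each. With the 4 sets as a random block 111 passed. A test of the range difference in one set against the other called 7 of the 117, named below. At the same time, pairs of arrays of 1 range correlated at 0.9606 to 0.9723 (log2 signal over kept probe sets, 6 pairs) and pairs across ranges at 0.9163 to 0.9378 (12 pairs). The ratio of 3' to 5' probe sets of Actb, a measure of RNA integrity, was 1.3 to 1.56 for codes 44 to 54 and 1.22 to 1.34 for codes 12 to 22, while that of Gapdh ran the other way, at 0.681 to 0.809 against 0.772 to 0.832. Their part in the results was not tested.

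Of 24416 probe sets kept after a filter on dim signal, 3154 were higher (12.9%) and 2496 lower (10.2%) in the range 44 to 54 at an adjusted p under 0.05 (limma, Benjamini-Hochberg). With quantile normalization the counts were 2605 higher and 3152 lower, and with median centring 2367 and 4070. Taken by gene, 1432 of 11277 were higher (12.7%) and 1443 lower (12.8%), and the median over all genes was -0.01 on the log2 scale. The counts were alike, but the sizes were not: 573 genes were at least 2-fold higher and 102 at least 2-fold lower, and 58 were at least 8-fold higher against 4 at least 8-fold lower. For 573 genes (5.08%) every array coded 44 to 54 lay above every array coded 12 to 22, and for 496 (4.4%) every one lay below. Fold changes come from log2(signal + 16) and so understate the differences of dim genes. In bulk RNA of this kind, fewer cells of a type and less RNA per cell cannot be told apart.

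**Figure D1:**
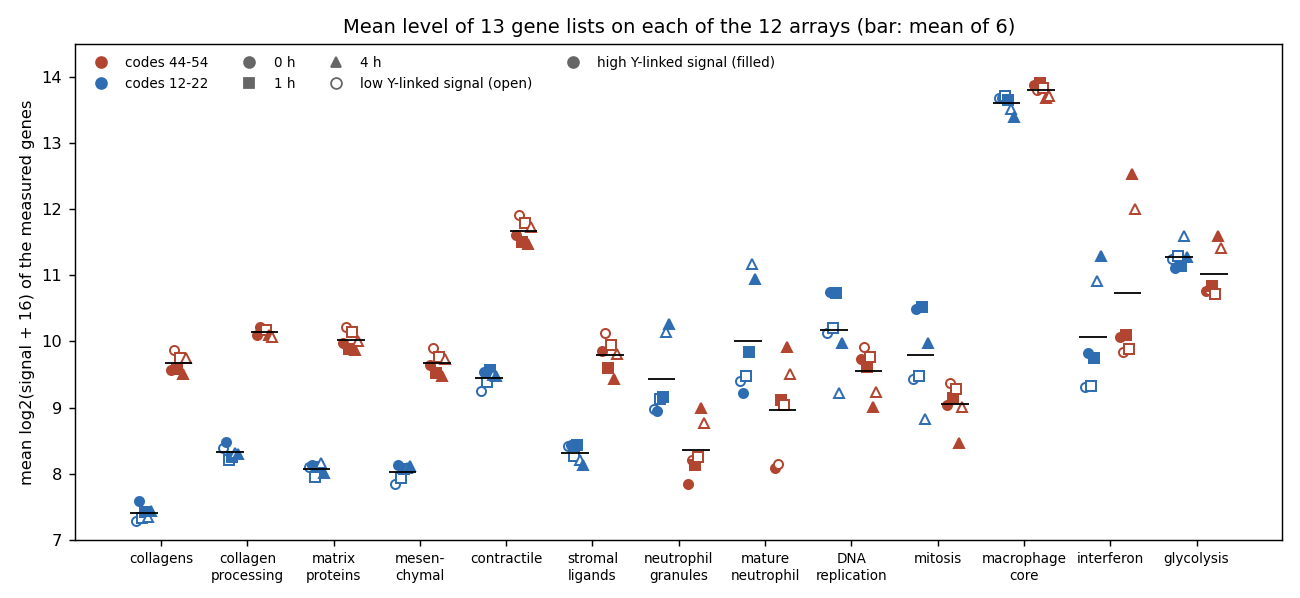
Mean log2(signal + 16) of the measured genes of 13 lists (horizontal axis) on each of the 12 arrays, with codes 44 to 54 in red, codes 12 to 22 in blue, symbols by time and open symbols for low Y-linked signal; bars are means of 6 arrays. The 6 stromal lists at the left do not overlap between ranges, while for mitosis the 3 filled blue arrays, coded 18, 20 and 22, stand above the other 9.

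Genes of the extracellular matrix and of stromal cells were higher in the range 44 to 54. Across 6 lists of such genes, 112 of the 139 were measured. Of these 90 were higher (12.7% of all genes), 1 was lower (12.8% of all genes) and 21 did not pass. The median member was 3.45-fold higher (log2 1.79, against -0.01 over all genes). In 77 of the 112 every array coded 44 to 54 lay above every array coded 12 to 22, against 5.08% of all genes. These counts are not over all members: 25 of the 112 exceeded the array median on fewer than 4 of the 6 arrays coded 12 to 22 and so passed the filter mainly through the range where they were high, and 24 of those 25 were higher. Among the 84 that exceeded it on at least 4 arrays of both ranges, 66 were higher, against 1058 of 9704 among all genes that did so. The counts of the single stromal lists below stand against the same 12.7% of all genes. The only lower gene was Mdk, which encodes a heparin-binding growth factor (-0.44 ± 0.14, adjusted p = 0.0463). The lists had been composed with these data known, so their direction is a description.

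Among the collagens 17 of 19 were higher. Col1a2, a chain of type I collagen, had signals of 4405, 5395 and 6407 (here and below the lowest, the median and the highest of 6 arrays) in the range 44 to 54, against 201.8, 309.8 and 430.1 in the range 12 to 22. The lowest array of one range stood far above the highest of the other, a difference of 16.7-fold (log2 4.06 ± 0.13, SE; limma, adjusted p = 3.97e-08). Col1a1, the partner chain, ran from 1355 to 1801 against 20.42 to 172.2. Col3a1, a fibrillar collagen of skin and vessels, ran from 2021 to 3182 against 121.1 to 227.0. The microfibril chain Col6a1 differed by 4.03 ± 0.32 and the basement membrane chain Col4a1 by 2.77 ± 0.21. Only Col7a1 (0.26) and Col14a1 (-0.57, adjusted p = 0.118) of the measured collagens did not pass.

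The enzymes and chaperones that fold and cross-link collagen followed in 12 of 15 cases. Sparc, a collagen-binding glycoprotein, gave 3314, 4050 and 4772 against 107.2, 199.0 and 309.1 (4.31 ± 0.23, adjusted p = 8.39e-07). Pcolce, which speeds the trimming of procollagen, Serpinh1, the collagen chaperone HSP47, and Lox, which starts the cross-links, differed by 3.78 ± 0.16, 3.62 ± 0.27 and 3.54 ± 0.31. The ranges of these 4 genes were all apart. The lysyl hydroxylases were uneven: Plod2 was higher by 1.22, while Plod1 (0.16) and Plod3 (-0.02) did not pass.

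Of the matrix glycoproteins and proteoglycans 16 of 21 were higher. Mgp, the matrix Gla protein that restrains calcification, had the greatest difference of any named gene in the fit, with 2878, 3818 and 5493 against 78.85, 132.3 and 206.5, or 27.6-fold (4.79 ± 0.24, adjusted p = 6.96e-07). Its difference was larger in the low-Y (5.52) than in the high-Y arrays (4.05; adjusted p of that difference 0.0206). Timp3, a matrix-bound inhibitor of metalloproteinases outside the list, differed by 4.31 ± 0.19. Tnc, an adhesion-modulating glycoprotein of remodelled tissue, ran from 3405 to 5721 against 217.5 to 407.7. Bgn, a small proteoglycan, differed by 3.56 ± 0.16, and Dcn, its relative, by 2.29 ± 0.18. Fn1, fibronectin, which macrophages also make, gave 8912, 10600 and 12820 against 1424, 1820 and 2491 (2.54 ± 0.16). Basement membrane genes were mixed, since Nid1 (3.15) and Lamb1 (2.47) were higher while Lamc1 (0.16) and Hspg2 (0.30) did not pass.

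All 12 measured contractile genes were higher, with a median of 6.97-fold, and none overlapped between ranges. Acta2, the smooth muscle actin that marks myofibroblasts and pericytes, had signals of 12360, 13730 and 15900 against 1679, 1765 and 2114 (2.92 ± 0.10, adjusted p = 8.69e-08). Tagln, an actin-binding protein of smooth muscle, was at 3698, 4206 and 5461 against 257.9, 298.3 and 386.7, a difference of 13.6-fold. Tpm2, a tropomyosin, differed by 3.06 ± 0.11, and Actn1 and Csrp1 only by 0.52 each. Myl9, the regulatory light chain of smooth muscle myosin, ran from 2134 to 3551 against 160.2 to 280.2 (3.72 ± 0.13). Its promoter is shown because it holds a CArG box, the element bound by serum response factor in many contractile genes. The 250 bases before the start of the gene are from RefSeq, GRCm38.p6, at chr2:156775214-156775463 on the + strand, with the CArG box in capitals, 161 to 152 bases before the start.
Myl9: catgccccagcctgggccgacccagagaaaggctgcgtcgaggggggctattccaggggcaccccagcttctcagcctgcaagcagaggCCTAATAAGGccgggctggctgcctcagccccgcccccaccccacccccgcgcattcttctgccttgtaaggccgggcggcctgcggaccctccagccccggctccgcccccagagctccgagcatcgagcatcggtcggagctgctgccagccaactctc
A CArG box, searched by its 10-letter consensus, which reads the same on both strands, was found in 2 of the 9 contractile genes with a promoter in the table and in 1.4% of all 27025 promoters, 1 per gene. A match is a description of the letters and no evidence of binding.

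The mesenchymal identity list, of receptors and transcription factors of fibroblasts, had 18 of 23 genes higher. Prrx1 and Snai2, transcription factors of limb and craniofacial mesenchyme and of cells leaving an epithelium, differed by 3.49 ± 0.19 and 3.31 ± 0.28. Fstl1, a secreted follistatin-like protein, differed by 3.73 ± 0.18. Prrx1 gave 917.5, 1245 and 1538 against 44.82, 100.9 and 142.9. The receptors for platelet-derived growth factor, Pdgfra and Pdgfrb, differed by 1.53 ± 0.24 and 1.99 ± 0.34. S100a4, often used as a fibroblast marker but made by many macrophages, did not pass (-0.05), nor did Nt5e (-0.21) or Eng (0.07).

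Among secreted stromal ligands 16 of 23 were higher. Ccn2 and Ccn1, matricellular proteins induced by stretch and TGF-beta, ran from 5694 to 16240 against 792.6 to 1770, and from 1323 to 4115 against 209.6 to 302.9. Fgf7, which acts on epithelia, and Dkk3, a Dickkopf family protein, differed by 3.05 ± 0.25 and 3.32 ± 0.30. Ligands that act on blood cells were among them: Cxcl12, which holds progenitors in the marrow, differed by 1.82 ± 0.13 with ranges apart, and Csf1, the growth factor of macrophages, by 1.24 ± 0.28 with overlapping ranges. Hgf (-0.59), Kitl (0.34) and Tgfb1 (0.19) did not pass.

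Of the 15 genes with the greatest positive differences, taken among those without overlap, some stand outside the lists. Prss23, a secreted serine protease, ran from 1418 to 5473 against 63.07 to 179.7. Aldh1a3, which makes retinoic acid, ran from 319.0 to 640.6 against 4.448 to 46.99, and S1pr3, a sphingosine phosphate receptor, from 1146 to 2500 against 64.08 to 156.7. Lists for other non-blood cells were small. Col2a1, a cartilage collagen, was dim but apart, at 143.1, 210.1 and 390.2 against 6.354, 13.95 and 17.81 (3.11 ± 0.18), and Sox9, the cartilage transcription factor, differed by 0.74 ± 0.15. Of 4 measured bone and cartilage genes these 2 were higher, against 12.7% of all genes, while Alpl (0.03) and Comp (0.44) did not pass. Col2a1 and Sox9 exceeded the array median on fewer than 4 arrays coded 12 to 22. They passed the filter mainly through the range where they were high, and 0 of the 4 exceeded the median on at least 4 arrays of both ranges. For endothelium 3 of 6 measured genes were higher, against 12.7% of all genes. They were Emcn (2.34 ± 0.38), Kdr (1.11 ± 0.21) and Cdh5 (0.94 ± 0.17), while Vwf (-0.61) and Egfl7 (0.05) did not pass. Of the 6, 3 exceeded the array median on fewer than 4 arrays coded 12 to 22, and 2 of those 3 were higher. These passed the filter mainly through the range where they were high. Of the 3 that exceeded it on at least 4 arrays of both ranges, 1 was higher. In the low-Y arrays 2 of the 6 were higher, and in the high-Y arrays 0 by limma with 3 at an unadjusted p under 0.05. The summed signal of the 12 endothelial markers with a probe set was 1214 to 1989 against 707.4 to 1232. Of 5 epithelial genes Krt5 alone was higher (0.64 ± 0.18), with overlapping ranges. It exceeded the array median on fewer than 4 arrays coded 12 to 22. None of the adipocyte or mesothelial markers was measured.

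The stromal difference did not rest on 1 set of arrays. Within the 6 low-Y arrays, 3 of each range, 60 of 112 genes were higher (background 2.51% of all genes) with a median log2 difference of 2.07, and within the 6 high-Y arrays 65 were higher (background 3.47%) with a median of 1.62. With the 4 sets as a random block 86 genes were higher (background 9.75%) and none lower (background 9.59%), Mdk included. At 0 h alone, before any extract, 68 of the 112 were higher (background 3.36%) and 102 had a positive difference. These counts are over all 112 genes, with the 25 that passed the filter mainly through the range 44 to 54 included.

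**Figure D2:**
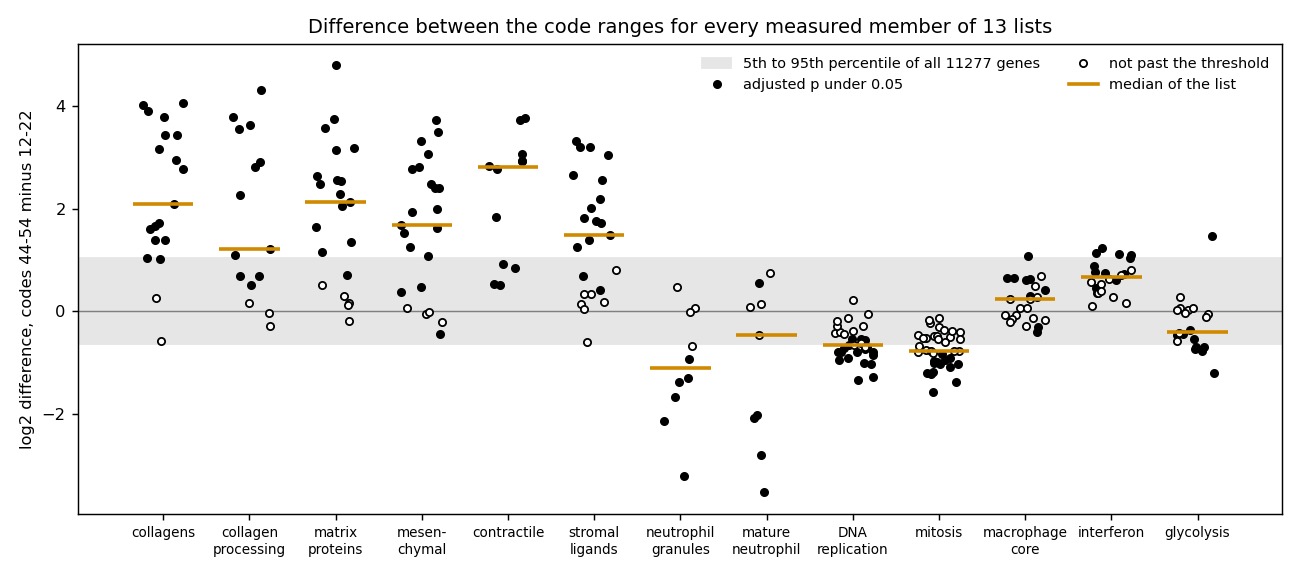
Log2 difference between the ranges (vertical axis, codes 44 to 54 minus 12 to 22) for every measured gene of 13 lists; filled points passed an adjusted p of 0.05, open points did not, and the bar is the median of the list. The grey band spans the 5th to 95th percentile of all 11277 genes, -0.63 to 1.04, and the medians of the 6 stromal lists lie above it.

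Transcripts of neutrophil granules were lower in the range 44 to 54. Of 44 genes in 3 neutrophil lists 22 were measured, of which 11 were lower (12.8% of all genes), 1 was higher and 10 did not pass, with a median log2 difference of -0.80. In 7 the ranges were apart, against 4.4% of all genes. Of the 22, 11 exceeded the array median on fewer than 4 arrays coded 44 to 54, and 8 of those 11 were lower. Of the 11 that exceeded it on at least 4 arrays of both ranges, 3 were lower, against 1366 of 9704 among all genes that did so. The count of lower neutrophil genes thus rests mostly on members that were dim in the range 44 to 54. S100a9, a calcium-binding protein of neutrophils and monocytes, had signals of 12.17, 78.92 and 185.2 against 604.8, 910.5 and 1582, so all 6 arrays coded 44 to 54 were below all 6 coded 12 to 22, by 11.5-fold (-3.53 ± 0.30, adjusted p = 2.17e-05). S100a8, its partner, was at 93.28, 198.5 and 575.2 against 1090, 1550 and 2309 (-2.80 ± 0.26). Both differences were seen in both sets of arrays, at -3.48 and -3.56 for S100a9 in the low-Y and high-Y arrays and at -3.01 and -2.60 for S100a8, where the second missed the threshold (adjusted p = 0.0518).

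Among secondary and tertiary granule genes 6 of 10 were lower. Ngp, neutrophilic granule protein, gave 71.08, 92.89 and 163.3 against 329.6, 457.2 and 764.3 (-2.13 ± 0.22). Chil3, a chitinase-like protein of neutrophils and of alternatively activated macrophages, ran from 2.035 to 46.94 against 245.7 to 553.9 (-3.21 ± 0.28). Camp, the cathelicidin antimicrobial peptide, Mmp8, neutrophil collagenase, and Mmp9, gelatinase B, differed by -0.92 ± 0.15, -1.29 ± 0.12 and -1.37 ± 0.16. Lcn2, an iron-scavenging protein, differed by -1.67 ± 0.32 with overlapping ranges, since its signal reached 1270 and 2819 in the 2 ranges. Of the mature neutrophil genes Stfa3, a stefin, and Padi4, which citrullinates histones, were lower, by -2.03 ± 0.36 and -2.07 ± 0.45, and Padi4 differed by -3.25 in the low-Y and by -0.90 (adjusted p = 0.141) in the high-Y arrays. Clec4d, a receptor for mycobacterial lipids that macrophages also carry, was the gene that went the other way (0.54 ± 0.11). Csf3r, the receptor for the neutrophil growth factor, did not pass (0.15, adjusted p = 0.612), and neither did Lyz2 (-0.02) or Cybb (0.47), which macrophages share. Lyz2 and Cybb are the bright members, and the summed signal of the secondary and tertiary granule list overlapped, at 58260 to 73100 against 52780 to 85570. At 0 h alone 6 of the 22 were lower (background 1.03%). Within the low-Y arrays 5 were lower (background 0.31%) and within the high-Y arrays 7 (background 2.55%). These counts are over all 22 genes, dim members included.

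The monocyte list was divided, with 4 of 13 genes higher and 4 lower, against 12.7% and 12.8% of all genes. In each set of arrays limma called 2 lower and none higher, with 4 and 3 higher at an unadjusted p under 0.05 in the low-Y and high-Y arrays. Ccr2, the chemokine receptor of inflammatory monocytes, was at 1810 and 1959 on the 2 arrays at 0 h in the range 44 to 54 and at 17370 and 19460 in the range 12 to 22. At 4 h the signals were 202.9 and 405.6 against 1896 and 3190. The ranges overlapped across times, because 1896 at 4 h lies under 1959 at 0 h, and were apart within each time. The difference was 9.15-fold (-3.19 ± 0.17, adjusted p = 8.64e-07), with -2.86 in the low-Y and -3.53 in the high-Y arrays. Spn, the sialoglycoprotein CD43, was lower (-1.32 ± 0.17). F13a1, a coagulation factor subunit, was lower by -1.07 on average, with -1.77 in the low-Y and -0.37 (adjusted p = 0.196) in the high-Y arrays, which differed from each other (adjusted p = 0.0206). The fractalkine receptor Cx3cr1 (0.88 ± 0.21) and the integrin Itgal (1.48 ± 0.27) were higher, both with overlapping ranges, as was Vcan (1.35 ± 0.30), a proteoglycan that fibroblasts also make. Sox4, a progenitor transcription factor, was higher by 1.07 ± 0.28 with overlap.

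**Figure D3:**
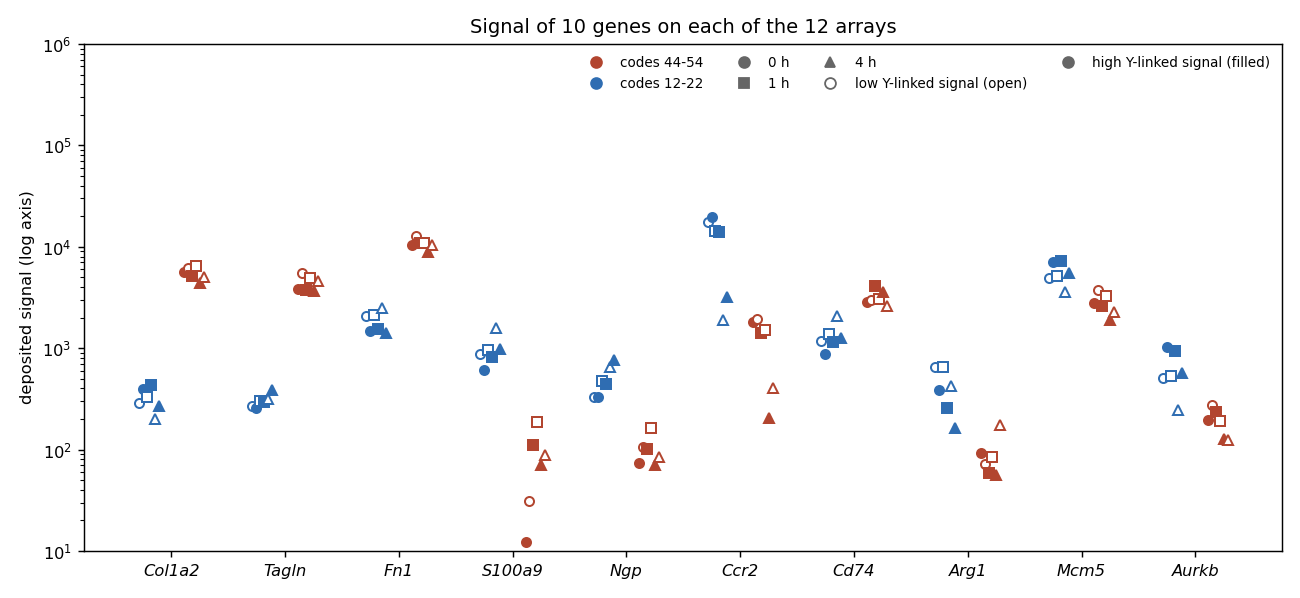
Deposited signal on a log axis of 10 genes on each of the 12 arrays, with codes 44 to 54 in red, codes 12 to 22 in blue, symbols by time and open symbols for low Y-linked signal. Col1a2, Tagln and Fn1 lie higher and S100a9 and Ngp lower in red without overlap; Ccr2 lies lower at 4 h in both ranges, and the filled blue symbols of Mcm5 and Aurkb stand highest.

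Macrophage genes moved little. In the core list 7 of 23 were higher and 2 lower, against 12.7% and 12.8% of all genes, with a median log2 difference of 0.23. Within the low-Y arrays limma called 1 higher (2.51% of all genes) and within the high-Y arrays none (3.47%). At an unadjusted p under 0.05, 6 and 10 were higher. Aif1, an actin-bundling protein of macrophages, ran from 1897 to 2871 against 827.0 to 1422 (1.08 ± 0.18), with 1.60 in the low-Y arrays and 0.56 (adjusted p = 0.082) in the high-Y arrays, which differed from each other (adjusted p = 0.0241). The mannose receptor Mrc1 gave 16540, 20020 and 24670 against 11180, 13270 and 14530 (0.64 ± 0.09), and the integrin Itgam differed by 0.62 ± 0.09. Cd68, a lysosomal protein, and Spi1, the transcription factor PU.1, were lower by small amounts, -0.31 and -0.41. Markers of tissue-resident macrophages were split, with 2 of 10 higher and 4 lower, against 12.7% and 12.8% of all genes. Of the 4 lower, 1 exceeded the array median on fewer than 4 arrays coded 44 to 54. Slc40a1, the iron exporter ferroportin, ran from 706.8 to 3325 against 202.6 to 372.3 (2.03 ± 0.32), and its difference was 3.36 at 4 h and 1.49 at 0 h. Folr2, a folate receptor, ran from 7396 to 10320 against 14940 to 16570 (-0.87 ± 0.08), and Cd5l, a secreted protein of resident macrophages, differed by -0.66. F5 (-1.18 ± 0.31) was lower and Vcam1 (0.80 ± 0.16) higher, with overlapping ranges.

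The list of alternative activation was divided, with 2 of 11 genes higher and 4 lower, against 12.7% and 12.8% of all genes. Fn1 and Mrc1, given above, were the higher ones, and Chil3, Clec10a (-0.78), Arg1 and Klf4 the lower ones. Of these 4 lower genes 2 exceeded the array median on fewer than 4 arrays coded 44 to 54. They passed the filter mainly through the range where they were high. Of the 8 genes that exceeded it on at least 4 arrays of both ranges, 2 were higher and 2 lower. Arg1, the arginase of that state, was at 56.22, 78.66 and 173.1 against 163.2, 403.7 and 655.7 (-1.99 ± 0.35, adjusted p = 0.00287). The ranges met at 4 h, at 173.1 and 163.2. Klf4, a transcription factor of that state, was lower by -0.80 ± 0.21 over all times and differed by 0.015 at 4 h alone. Antigen presentation showed 3 of 11 genes higher and 1 lower, against 12.7% and 12.8% of all genes, with a list median of -0.11 at 4 h. Limma called 0 higher in the low-Y arrays (2 at an unadjusted p under 0.05) and 3 in the high-Y arrays. Cd74, the invariant chain of MHC class II, ran from 2633 to 4078 against 867.3 to 2098 (1.31 ± 0.17), H2-Eb1 and H2-Aa differed by 0.76 ± 0.21 and 0.64 ± 0.15 with overlapping ranges, and H2-DMa by -0.53 ± 0.14. Among dendritic cell genes Fscn1, an actin bundler of mature cells, was higher by 1.89 ± 0.42 over all times, but by 0.06 at 4 h and 3.02 at 0 h, and Bst2 differed by 0.46 ± 0.14 (adjusted p = 0.0549 with the sets as a block). Complement genes were higher in 6 of 12 cases (12.7% of all genes), and in 4 with the sets as a block (9.75% of all genes). Of the 6, 2 exceeded the array median on fewer than 4 arrays coded 12 to 22. Among the 9 of the list that exceeded it on at least 4 arrays of both ranges, 4 were higher, against 1058 of 9704 genes. Within the low-Y and high-Y arrays limma called 0 and 1 of the 12, with 5 and 7 at an unadjusted p under 0.05. The higher complement genes were led by Serping1, the C1 inhibitor, which fibroblasts also secrete (1.42 ± 0.19). The others included Cfp, properdin (0.52 ± 0.10), C3ar1 (0.45 ± 0.11) and Cd55 (0.52 ± 0.15), which did not pass with the sets as a block (adjusted p = 0.0535).

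Lymphoid and other blood cell genes were few. Ighm, the heavy chain of IgM, was lower, with 23.71, 123.6 and 259.8 against 530.1, 1105 and 1409 (adjusted p = 4.22e-05), and Cd79b, part of the B cell receptor, was lower by -1.57 ± 0.18, while Ebf1, a B cell factor that stromal cells also express, was higher by 1.76 ± 0.27. Ebf1 exceeded the array median on fewer than 4 arrays coded 12 to 22. Blnk, an adaptor that macrophages share, differed by -0.52 ± 0.15 (adjusted p = 0.0533 with the sets as a block). Cd24a, a surface glycoprotein of immature B cells, neutrophils and erythroid cells, ran from 171.0 to 276.1 against 324.3 to 1240 (-1.78 ± 0.26). Itgb3, an integrin of platelets and of stromal and endothelial cells, ran from 147.7 to 264.1 against 3.786 to 22.64 (2.90 ± 0.23), and Ppbp, a platelet chemokine, differed by 1.87 ± 0.27. Of 7 measured platelet genes these 2 were higher, against 12.7% of all genes, and 5 did not pass, among them Pf4 (0.265) and Itga2b (0.197). Itgb3 lay under the array median on every array coded 12 to 22. It thus passed the filter only through the range where it was high. Mcpt8, a basophil protease, Ccr3, an eosinophil receptor, and Cd28, a costimulatory receptor of T cells, were higher by 1.34 ± 0.35, 1.63 ± 0.35 and 0.91 ± 0.18. Each was the single called gene of its list, but Mcpt8 and Ccr3 were also the only genes measured, of 11 and 8 listed. Both exceeded the array median on fewer than 4 arrays coded 12 to 22, so they passed the filter mainly through the range where they were high. Within the low-Y and high-Y arrays limma called neither (adjusted p = 0.107 and 0.268 for Mcpt8, 0.166 and 0.176 for Ccr3). Tfrc, the transferrin receptor, was lower by -0.74 ± 0.13, and Prf1 did not pass (-0.01, adjusted p = 0.98).

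The 15 greatest negative differences were taken among genes whose ranges did not overlap, and the others of these 15 had these values. Ccr2, whose ranges overlapped across times, was for that reason not among them. Clec2i, a C-type lectin, differed by -2.63 ± 0.36. Ambp, Stat4 and Ctnnd2 differed by -1.92 ± 0.30, -1.92 ± 0.29 and -1.88 ± 0.17. Stk26, a kinase, ran from 94.03 to 255.3 against 442.6 to 621.9 (-1.80 ± 0.15), and Nup210, a nuclear pore protein, from 32.13 to 102.8 against 204.1 to 387.0 (-1.74 ± 0.23). Rad51ap1, a recombination factor of dividing cells, differed by -1.68 ± 0.30, with -2.54 in the high-Y and -0.82 (adjusted p = 0.134) in the low-Y arrays (adjusted p of that difference 0.0203), and Parvg, a parvin of blood cells, by -1.58 ± 0.14. The ranges of all 8 were apart, as the choice required.

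Genes of DNA replication and mitosis were lower in the range 44 to 54, and this depended on which arrays coded 12 to 22 were used. Of 32 replication genes 19 were lower and none higher (median log2 -0.66), and of 37 mitosis genes 14 were lower and none higher (median -0.77). Among all genes 12.8% were lower and 12.7% higher. Only 1 replication and 2 mitosis genes were apart over 6 against 6 arrays, a share near the 4.4% of all genes. At 0 h alone the limma fit called 0 genes of either list, with 14 of 32 and 7 of 37 lower at an unadjusted p under 0.05, and with 29 and 37 negative differences.

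Within the high-Y arrays, which are coded 44, 46 and 51 against 18, 20 and 22, 20 of 32 replication genes and 30 of 37 mitosis genes were lower (2.55% of all genes), with medians of -1.06 and -1.45. Within the low-Y arrays, coded 47, 49 and 54 against 12, 14 and 16, the limma fit called none in either list (0.31% of all genes were lower), with 9 and 5 lower at an unadjusted p under 0.05, and the medians were -0.25 and 0.01. A test of the range difference in one set against that in the other called 23 of 37 mitosis genes and 5 of 32 replication genes, all with the lower value in the high-Y arrays, where 116 of all 11277 genes (1.03%) were called. The same limma test called 3 of 112 stromal genes, also lower in the high-Y arrays, and 0 of 22 neutrophil genes, with 43 and 1 at an unadjusted p under 0.05. The mean log2 level of the mitosis list was 10.50, 10.53 and 9.97 on the arrays coded 18, 20 and 22, taken at 0 h, 1 h and 4 h, and 9.44, 9.48 and 8.83 on those coded 12, 14 and 16. On the 6 arrays coded 44 to 54 it lay between 8.46 and 9.37, close to the second of these sets.

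Ccnb2, a mitotic cyclin, shows the pattern. Its signal was 2243, 2225 and 1495 on the arrays coded 18, 20 and 22, 887.2, 865.6 and 714.2 on those coded 12, 14 and 16, and between 360.8 and 633.5 on those coded 44 to 54. All arrays of the latter range were lower (-1.23 ± 0.28, adjusted p = 0.0115), by -1.90 within the high-Y arrays and by -0.55 (adjusted p = 0.161) within the low-Y arrays. Mcm5, a subunit of the replicative helicase, gave 7122, 7202 and 5464, then 4879, 5093 and 3550, and 1916 to 3725 in the range 44 to 54 (adjusted p = 0.00157). Aurkb, the Aurora kinase of the chromosomal passenger complex, ran from 124.5 to 277.2 against 245.6 to 1032 (-1.57 ± 0.24), with -2.08 in the high-Y and -1.04 in the low-Y arrays (adjusted p = 0.014 and 0.0948). Mad2l1, a spindle checkpoint protein, and Nusap1, a spindle protein, differed by -1.20 ± 0.22 and -1.37 ± 0.28. Ccnb2, Mcm5, Nusap1 and Gins1 are among the genes whose difference depended on the set. Uhrf1, which maintains DNA methylation, Gins1 and Mcm7 differed by -1.34 ± 0.29, -1.28 ± 0.22 and -1.02 ± 0.14.

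The promoters of Ccnb2 and Mcm5 are shown as examples of these lists that hold elements known from cell cycle genes: the CCAAT box, bound by NF-Y, the CHR element of genes repressed outside mitosis, and the E2F site of S phase genes. Both are the 250 bases before the start in RefSeq, GRCm38.p6, for Ccnb2 at chr9:70421555-70421804 on the - strand and for Mcm5 at chr8:75109259-75109508 on the + strand. Capitals mark CCAAT in both, TTTGAA (the CHR letters) in Ccnb2 and GCGCCAAA (the E2F letters) in Mcm5.
Ccnb2: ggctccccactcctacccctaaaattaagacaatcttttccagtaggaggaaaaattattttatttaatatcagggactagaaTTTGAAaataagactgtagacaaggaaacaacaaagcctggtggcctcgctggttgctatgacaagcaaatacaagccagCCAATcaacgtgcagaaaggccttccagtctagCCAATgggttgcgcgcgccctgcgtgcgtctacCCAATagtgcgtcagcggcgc
Mcm5: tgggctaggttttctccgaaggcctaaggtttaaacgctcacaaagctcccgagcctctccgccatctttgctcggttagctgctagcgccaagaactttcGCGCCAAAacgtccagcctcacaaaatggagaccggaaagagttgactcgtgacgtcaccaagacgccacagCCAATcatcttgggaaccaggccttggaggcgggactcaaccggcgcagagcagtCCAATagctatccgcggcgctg
In Ccnb2 the CCAAT letters begin 87, 54 and 21 bases before the start, and in Mcm5 77 and 22 bases before it. At least 2 CCAAT boxes (CCAAT or ATTGG) were found in 17 of the 32 mitosis genes with a promoter in the table, in 7 of 27 replication genes and in 10.5% of all promoters. CHR letters (TTTGAA or TTCAAA) were found in 10, 3 and 16.3%, and E2F letters (TTTCCCGC or TTTGGCGC, on either strand) in 0, 5 and 1.35%. The motifs do not overlap in the printed promoters.

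Of 22 D cyclins, MYC family genes and inhibitors, 4 were higher and 4 lower, against 12.7% and 12.8% of all genes. Ccnd2, a D cyclin, gave 2006, 2254 and 2509 against 426.7, 567.3 and 1462 (1.66 ± 0.23), with ranges apart, and Ccnd1 differed by 0.86 ± 0.21 with overlap. The inhibitor Cdkn2b was higher by 1.05 ± 0.18 and the MYC antagonist Mxd1 by 1.18 ± 0.29, while Cdkn2c and Cdkn1a were lower by -0.83 and -0.58.

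**Figure D4:**
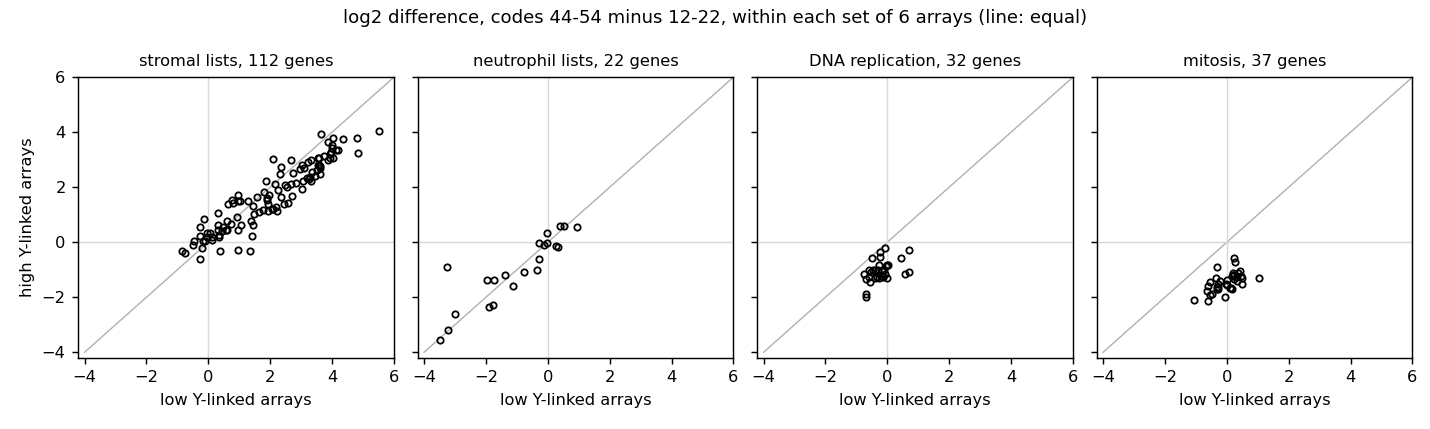
Log2 difference between the ranges (codes 44 to 54 minus 12 to 22) of each measured gene within the 6 low-Y arrays (horizontal axis) and within the 6 high-Y arrays (vertical axis), for 112 stromal, 22 neutrophil, 32 replication and 37 mitosis genes. Most stromal genes lie along or somewhat below the line of equality and neutrophil genes along it, while mitosis genes lie near 0 on the horizontal axis and below 0 on the vertical one.

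Interferon response genes were higher in 11 of 22 cases (12.7% of all genes) with none lower (median 0.67), and the median was 0.33 at 0 h and 1.17 at 4 h. Irf7, the master regulator of type I interferon, ran from 1370 to 4054 against 737.1 to 1473 (1.11 ± 0.12, adjusted p = 9.78e-05), apart within each time. Oas3, an RNA sensor, ran from 1107 to 2478 against 521.5 to 853.8, and Ifit2 and Ifit3, which bind foreign RNA, differed by 1.24 ± 0.25 and 1.14 ± 0.31. Within the low-Y arrays the limma fit called no gene of this list (13 higher at an unadjusted p under 0.05) and within the high-Y arrays 1 (11 unadjusted), with medians of 0.66 and 0.68. Of 19 cytokines and chemokines of the extract response, 3 were higher, against 12.7% of all genes. They were Ptgs2, the inducible cyclooxygenase (2.07 ± 0.62), Csf3 (1.07 ± 0.30) and Lif (0.96 ± 0.28). Of these 3, 1 exceeded the array median on fewer than 4 arrays coded 12 to 22. With the 4 sets as a random block limma called none (3 at an unadjusted p under 0.05). The list median was 0.04 at 0 h, 1.77 at 1 h and -0.42 at 4 h. However, the 2 arrays of the range 12 to 22 at 1 h were unlike. The mean log2 level of the list was 7.71 on the array coded 14 and 10.04 on that coded 20. It was 10.84 and 10.64 on those coded 51 and 54, and 7.17 and 7.05 at 0 h on those coded 12 and 18. The array coded 14 correlated at 0.9732 with that coded 12 and at 0.9606 with that coded 20. Neither gene of the title that was measured here passed: Il10 differed by 1.01 ± 0.40 (adjusted p = 0.0945) and Tlr2 by 0.75 ± 0.31 (adjusted p = 0.107). Il10 was at 243.4 and 281.9 at 0 h in the range 44 to 54 against 244.8 and 315.1, and at 1625 and 1932 at 1 h against 266.8 and 1063. Tlr2 had a signal of 2824 or more on every array, between 2824 and 10290 at 0 h and 1 h in the range 12 to 22 and between 6298 and 21460 in the range 44 to 54. At 4 h alone the difference of Tlr2 had the other sign, at -0.38, and did not pass.

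Metabolic genes differed by smaller amounts. Of 20 genes of glycolysis and hypoxia 9 were lower and 1 higher, against 12.8% and 12.7% of all genes (median -0.40), but the median was -0.02 at 4 h, where the mean level of the list overlapped, and 1 gene was lower within each set of arrays. Aldoa, aldolase, ran from 10250 to 15180 against 17720 to 24870 (-0.78 ± 0.11), and Tpi1, triosephosphate isomerase, and Egln3, an oxygen sensor, differed by -0.73 ± 0.10 and -1.20 ± 0.21. Pfkfb3, which makes the activator of phosphofructokinase, was the higher one (1.47 ± 0.29). Lipid genes were higher in 7 of 21 cases and lower in 2, against 12.7% and 12.8% of all genes. Fabp4, a fatty acid carrier, Scd1, a desaturase, and Idi1, of the isoprenoid path, differed by 1.42 ± 0.18, 1.04 ± 0.14 and 0.98 ± 0.22, and Abcg1, a cholesterol exporter, by -1.03 ± 0.19. Of 13 housekeeping genes 3 were lower (12.8% of all genes), Tfrc among them, with Rps18 and Gusb at -0.37 ± 0.09 and -0.33 ± 0.08. The list median was -0.14.

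The difference between the ranges was present at every time. The 2 against 2 arrays gave 727 probe sets higher (2.98%) and 193 lower (0.79%) at 0 h, 945 (3.87%) and 302 (1.24%) at 1 h, and 1169 (4.79%) and 376 (1.54%) at 4 h. Of the genes called over all times, 1412 of 1432 higher and 1440 of 1443 lower genes had the same sign at all 3 times. They were called on the average of the same times, which favours such agreement, so these counts are a description. A test of whether the difference depended on time called 0 of 24416 probe sets (limma, lowest adjusted p 0.0888), although 2120 had an unadjusted p under 0.05. Without the array coded 20 it called 81. The 920 calls at 0 h became 269 without the array coded 47.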

How the data were processed

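RNA was measured on Affymetrix 3' arrays. The deposited table holds linear signal intensities, 1 per probe set and array, and per the submitters' processing notes they were made by the authors with MAS5 and GCOS, versions not given in the sources used here. The mean of the deposited intensity between the 2nd and 98th percentile is 500 on each array. A group is the range of the array code in a title; replicates were numbered in accession order and pair nothing. Members, lists and tests were chosen with earlier results of these data known.

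Values of the 12 arrays were taken to log2 after adding 16, without rescaling. Of 45101 probe sets, 64 controls were left out. The others had to exceed their array's median on 4 or more arrays, which left 24416 of them (54.2%) for 11277 genes. R 4.3.3 and limma 3.58.1 (lmFit, eBayes) fitted range with time as a block, with Benjamini-Hochberg adjustment over all kept probe sets and a threshold of 0.05. "Higher" and "lower" refer to that threshold. The fit was tested on simulated data. The precision is limited by the number of arrays.

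Names come from the platform annotation: 34945 probe sets carry 1 symbol (34741 matched RefSeq), 932 several and 9160 none; the latter were tested but not named. A gene was represented by its brightest kept probe set. Named genes are the 15 greatest differences in each direction without overlap, up to 4 called members per list with the largest differences (or the 2 brightest), Tlr2, Il10 and sex-linked and strain-variable genes; others are named as examples, chosen after their values were seen. The title's remaining genes are not reported here. Of 640 list genes 443 were measured. Alternatives covered pseudocount, filter, scaling, time block, subsets of arrays, single times and left-out arrays; the split by Y-linked signal (Eif2s3y over or under 300) was added after seeing the data, fitted within each set and as a random block of 4 sets (correlation 0.108). Promoters are RefSeq's, GRCm38.p6.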

Additional observations from a re-analysis of the deposited data

Results flagged for a closer look

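A test of the range difference in the high-Y against the low-Y arrays called 23 of 37 mitosis genes, as given above; the sets were found in the data and are not groups of the study.

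Single arrays stood away from the other 5 of their range for 8 genes of the 324 groups examined, where chance alone flags about 1 in 20. In the range 12 to 22, the array coded 20 was low for Col1a1 (20.42), and the array coded 16 was low for Serpinh1 (48.11), Fbln2 (46.38) and Gpx8 (44.02) and high for H2-Aa (2356). In the same range the array coded 22 was high for Spn (731.4). In the range 44 to 54 the array coded 49 was low for Prf1 (34.51) and that coded 46 for Scd1 (164.1).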

How the results depend on the processing

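No paired analysis was possible because the replicate numbers were given in accession order; the sets by Y-linked signal, seen in the data, were fitted as a random block instead, which kept 111 of 117 named calls. Of 117 named genes past the threshold, 44 kept their call under all of the 27 alternatives listed at the start and 75 under all but the single times. Of those 44, 37 also passed within both Y-linked sets, Slc40a1 (adjusted p 0.145 and 0.0831) and S100a8 (0.0518 in the high-Y arrays) being among the others. Values changed sign for Klf4 and Ptgs2 at 4 h alone (0.015 and -0.047) and for Lif at 0 h alone (-0.176). The count of stromal genes higher stayed within 1.5 times of 90 under every alternative run.

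The 3154 probe sets higher became 1564 without the time block and 1562 against codes 12 to 16 only. The 2496 lower became 1366 with no filter, 4070 with median centring, 1062 without the time block, 739 against codes 12 to 16 and 1572 against codes 18 to 22. The share of calls that were higher was 55.8% and became 45.2% with quantile normalization (2605 higher, 3152 lower) and 36.8% with median centring (2367 and 4070). At 0 h, 1 h and 4 h alone there were 727, 945 and 1169 probe sets higher and 193, 302 and 376 lower. Neutrophil genes lower (11) were 6, 5 and 7 at those times, replication genes lower (19) were 0, 1 and 0, and mitosis genes lower (14) were 0, 0 and 1. Without the time block 10 replication genes were lower. Against codes 12 to 16 only, 4 replication and 4 mitosis genes were lower, and against codes 18 to 22 only, 33 mitosis genes. The 920 probe sets called at 0 h became 488 with no filter and 1489 with a trended, robust fit. The 0 calls for dependence on time became 50 with a pseudocount of 64, 39 with all 18 arrays and 141 with a trended, robust fit.

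Alternatives added after seeing the data gave, in the low-Y arrays, 488 probe sets higher, 47 lower, 5 neutrophil, 0 replication and 0 mitosis genes lower, and in the high-Y arrays 802, 531, 7, 20 and 30. These fits use fewer arrays.

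Leaving out 1 array gave 2473 to 3113 probe sets higher, 1848 to 2395 lower, 84 to 88 stromal genes higher, 11 neutrophil genes lower throughout, 15 to 22 replication and 11 to 20 mitosis genes lower. It gave 269 (without the array coded 47) to 936 calls at 0 h, where the lone array is assumed to vary like the others, and 0 to 81 for dependence on time. Dim signal limits the neutrophil, endothelial and lymphoid lists, whose levels are often near the floor of the array.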

Other observations

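Nnt, a mitochondrial transhydrogenase that carries a deletion in C57BL/6J mice, had signals of 2510, 2323 and 1580 on the arrays coded 47, 54 and 49 and between 516.8 and 1420 on the other 9. The range difference was 1.22 in the low-Y and -0.75 in the high-Y arrays, and these differed (limma, adjusted p = 0.0176). Where the probe set lies relative to the deletion was not examined. Glo1, whose copy number varies between strains, differed by 0.01 ± 0.08 between the ranges.

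Xist was at 5692 to 13260 on the low-Y arrays and at 1995 to 5269 on the high-Y arrays, so the high-Y arrays held both Y-linked and Xist signal. Whether they came from pooled animals is not given by the labels.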
